A study of Gallus gallus with 8 samples.

Results

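Caudal progenitor and notochord factors were followed in sorted cells of the chick neural tube: brachyury (listed as T, now TBXT), TBX6, NOTO, CDX1, CDX2, CDX4 and SP5. They were taken by gene symbol. The deposited table held 7 probe sets of 5 of these genes under the symbols themselves. Another 2 probe sets, listed under the older symbol GNOT1, carry Entrez gene ID 396302, which RefSeq names NOTO, so that 9 probe sets of 6 of the 7 genes were described, among 38439 probe sets tested and 13249 genes with a symbol. SP5 was not analysed here, since no probe set was matched to it.

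The study compared 2 fractions of the same embryos. BRE_active cells were red and green, and BRE_inactive cells were red without green. All cells of both groups came from white Leghorn embryos electroporated at trunk levels at Hamburger and Hamilton stages 10 to 11 with pBRE-tk-EGFP, a green reporter behind a BMP-responsive element, and pCAGGS-IRES-H2B-RFP, a red nuclear marker of electroporated cells. Neural tubes were dissected 24 h later and nearly 30 embryos were pooled. Each of 4 pools gave both fractions, hence 4 arrays per group and 8 in all. The groups were therefore set by a transient reporter and not by a treatment, and each array averages many embryos.

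Brachyury is a T-box transcription factor that is required for mesoderm and notochord formation in vertebrates, and in the tail bud it is made together with SOX2 in progenitors that give rise to both spinal cord and somites. TBX6 is a T-box factor of the presomitic mesoderm, and NOTO is a homeobox factor of the node and notochord. The CDX genes encode caudal homeobox factors that pattern the posterior body and act on Hox genes. In the mouse, brachyury and several CDX genes respond to Wnt signalling.

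Values are log2 expression as deposited, 1 per probe set and array, and a present call is the authors' mark that a probe set was detected on an array. Array medians lay between 4.24 and 4.32, and between 34.9% and 40.0% of probe sets were called present on an array. The neural tube markers SOX2, SOX3, PAX6 and CDH2 were present on all 8 arrays and SOX1 on 7. Of the notochord markers, SHH, which the notochord and floor plate secrete, was present on no array. COL2A1 was present on all 8, the BMP antagonist gene CHRD on 4 BRE_active and 2 BRE_inactive arrays, and FOXA2 on 1 BRE_active and 3 BRE_inactive arrays. Depth cannot be given for arrays, and the number of arrays limits the precision.

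Of the 9 probe sets, those of brachyury and 1 of the 3 of CDX2 were present on all 8 arrays. Those of CDX4 and 1 of the 2 of NOTO were present on 4 arrays, and the other 5 on none. Among all probe sets 47.7% were present on no array, so a lack of detection was common. Limma with group as the only term called 0 of the 9 at an adjusted p under 0.05, where it called 1.34% of all probe sets and 0.981% as higher in BRE_active cells. Brachyury had the smallest unadjusted p of the 9, and 3.08% of all probe sets had a smaller one. The embryo pool was then added to the model as a block, so that the fractions of each pool were paired. With it 1 of the 9 was called, brachyury, where 5.61% of all probe sets were called and 3.97% were called higher in BRE_active cells.

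**Figure D1:**
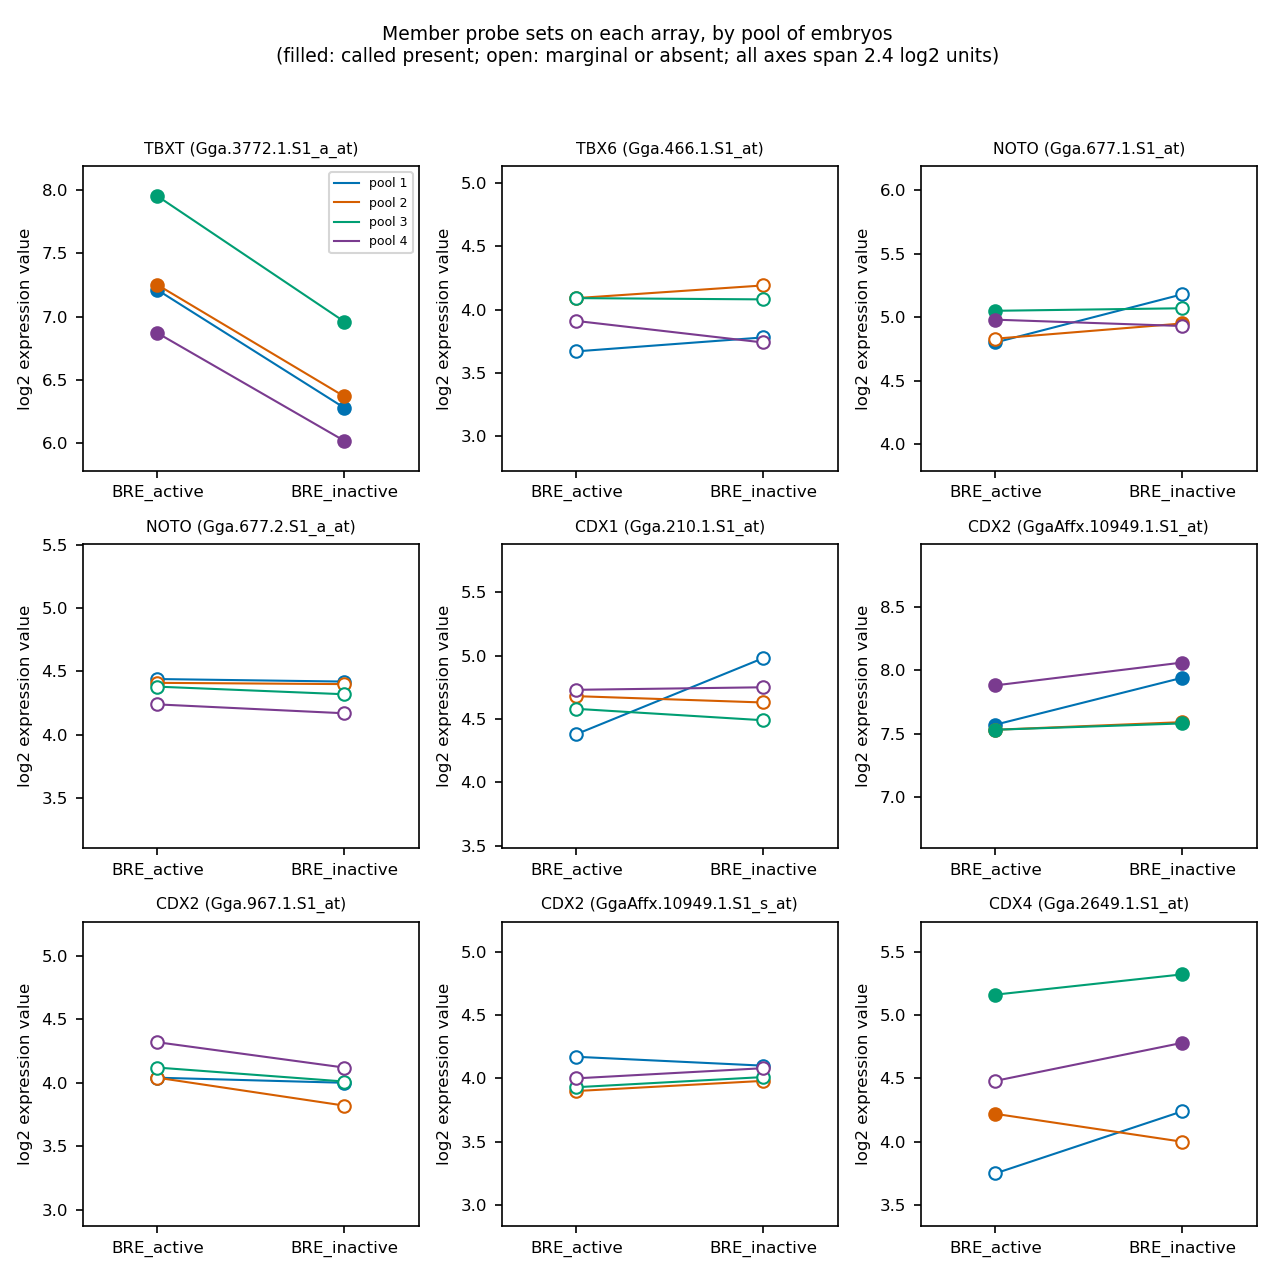
Log2 expression value of each of the 9 probe sets (vertical axis) in BRE_active and BRE_inactive cells (horizontal axis), with a line for each of the 4 pools of embryos. Filled points were called present and open points marginal or absent. The 4 lines of TBXT run nearly parallel, from 6.87 to 7.95 in BRE_active and from 6.02 to 6.96 in BRE_inactive cells, whereas those of CDX4 are set apart by pool.

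Brachyury was higher in the green fraction of every pool. Its probe set (Entrez gene ID 395782, chromosome 3 in the deposited table) read 7.21, 7.25, 7.95 and 6.87 in BRE_active cells of pools 1 to 4, against 6.28, 6.37, 6.96 and 6.02 in BRE_inactive cells. Pool 3 was the highest and pool 4 the lowest in both fractions. The groups overlapped by a single pair of arrays, since BRE_active cells of pool 4 lay below BRE_inactive cells of pool 3.

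The group means of brachyury were 7.32 ± 0.45 in BRE_active and 6.41 ± 0.40 in BRE_inactive cells (SD, n = 4 each), a log2 difference of 0.91 ± 0.25 (SE of limma), or 1.88-fold with a 95% interval of 1.28 to 2.76. Limma gave an unadjusted p of 0.00439 and an adjusted p of 0.142, which is not past the threshold. With the pool as a block the same difference had an SE of 0.08, an interval of 1.65-fold to 2.14-fold and an adjusted p of 0.000784. By p-value it ranked 135 of the 38439 probe sets with the block and 1186 without it. The exact two-sided permutation test over the 70 splits of the arrays gave p = 0.0571, where the smallest possible is 0.0286. The exact sign-flip test over the 4 pools gave p = 0.125, the smallest it can give.

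The step in brachyury was nearly the same in each pool. BRE_active minus BRE_inactive was 0.93, 0.88, 0.99 and 0.85 on the log2 scale in pools 1 to 4, with an SD of 0.0606. Among the 10875 probe sets present on all 8 arrays the median of this SD was 0.226, and 3.14% had a smaller one. A larger absolute difference between the groups was found for 3.52% of them. A higher value in all 4 pools was common, at 25.0% of these probe sets and 13.2% of all probe sets, so the sign alone does not set brachyury apart.

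Most of what was left beside the step was the pool. Group accounted for 60.4% of the sum of squares of brachyury over the 8 arrays, pool for 39.4% and the remainder for 0.2%. Over the probe sets present on all 8 arrays the median shares were 20.2% for group and 50.1% for pool, so a pool share of this size was ordinary. The pool means of brachyury were 6.74, 6.81, 7.46 and 6.45, a range of 1.01 that exceeds the difference between the fractions.

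The call of brachyury turned on how pools and arrays entered the fit. Each pool gave both fractions, and only the fits with the pool as a fixed or random block take this pairing into account. The fit with the pool as a random block used 1 correlation within pools for all probe sets, estimated at 0.223, and not a value for brachyury alone. The SE of brachyury was then 0.20 and its adjusted p 0.0404, where 2.78% of all probe sets were called and 1.9% were called higher. Without the BRE_active array of pool 4 the difference was 1.06 ± 0.24 and the adjusted p was 0.0469, where 3.69% were called and 2.76% were called higher. In the other 16 alternatives it was not called, and in all 19 the difference was positive. It ran from 0.70 without the BRE_active array of pool 3 to 1.10 without the BRE_inactive array of pool 3. The blocks, the filter on present calls, the other prior and the second table leave the difference at 0.91 by construction. All alternatives reuse the same arrays, and every pool was higher in BRE_active cells, so the shared sign is no independent support. With 1 probe set per gene and adjustment over 13249 genes, the adjusted p was 0.0947, where 3.0% of genes were called.

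**Figure D2:**
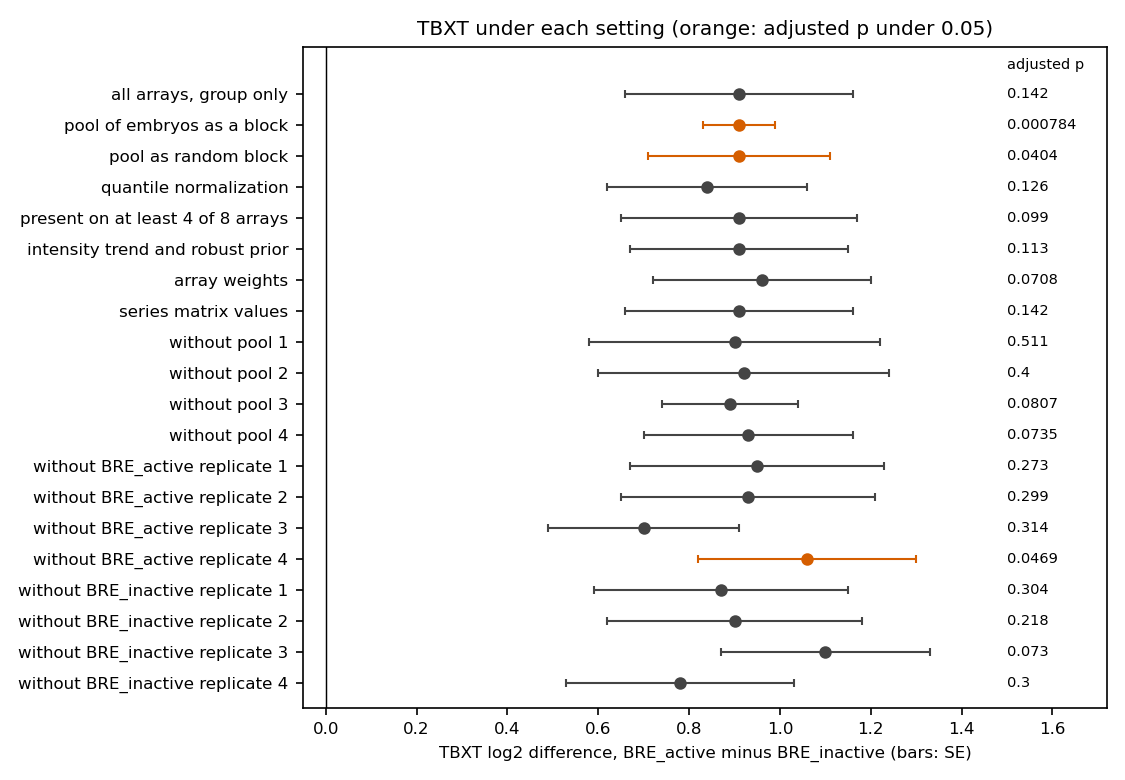
Log2 difference of TBXT, BRE_active minus BRE_inactive (horizontal axis, bars are the SE), under each setting (vertical axis), with the adjusted p at the right. Orange marks an adjusted p under 0.05, reached with the pool as a fixed or random block and without the BRE_active array of pool 4, and all values lie between 0.70 and 1.10.

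Signs of RNA quality and of other cells also differed between the fractions. For the control genes actin, ef1a and gapdh, probe sets at the 3-prime end were brighter than those at the 5-prime end, and the mean excess over these 3 genes was 2.84, 3.20, 3.24 and 2.41 on the log2 scale in BRE_active cells, against 2.73, 2.60, 2.85 and 2.21 in BRE_inactive cells, and was larger in BRE_active cells in 4 of 4 pools. It was highest in pool 3 and lowest in pool 4 in both fractions, as brachyury was. Over the 8 arrays, which share pools, the 2 measures had a Pearson r of 0.821, or 0.804 after the group means were removed. The part of RNA quality in the brachyury difference was not tested. The stated minimum number of cells per pool was lower for green than for red cells, and the part of cell number was not tested. Red blood cell markers differed much more, with a mean over 5 genes of 6.43 to 9.75 in BRE_active and 11.17 to 13.16 in BRE_inactive cells, and their part was not tested either. In such bulk samples fewer cells of a type and less RNA per cell cannot be told apart.

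TBX6, in contrast, was not detected. RefSeq lists Tbx6L among the synonyms of this chicken gene (Entrez gene ID 395792, chromosome 15). It read 3.67, 4.09, 4.09 and 3.91 in BRE_active cells of pools 1 to 4, against 3.78, 4.19, 4.08 and 3.74 in BRE_inactive cells, and was absent on all 8 arrays. The ranges of the groups overlapped almost fully, the adjusted p was 0.982, and its differences lie below detection.

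NOTO was at the edge of detection. Its better detected probe set (Entrez gene ID 396302, chromosome 4) was present on 3 BRE_active and 1 BRE_inactive arrays, and marginal in the BRE_inactive cells of pools 1 and 3. It read 4.80, 4.83, 5.05 and 4.98 in BRE_active cells, against 5.18, 4.95, 5.07 and 4.93 in BRE_inactive cells. The more frequent present calls went with no higher values, since 3 of 4 pools were lower in BRE_active cells and the groups overlapped. The difference was -0.12 ± 0.09 with a 95% interval from -0.32 to 0.09 and an adjusted p of 0.618. The other probe set was absent on all 8 arrays, with values from 4.24 to 4.44 in BRE_active and from 4.17 to 4.42 in BRE_inactive cells and an adjusted p of 0.871.

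**Figure D3:**
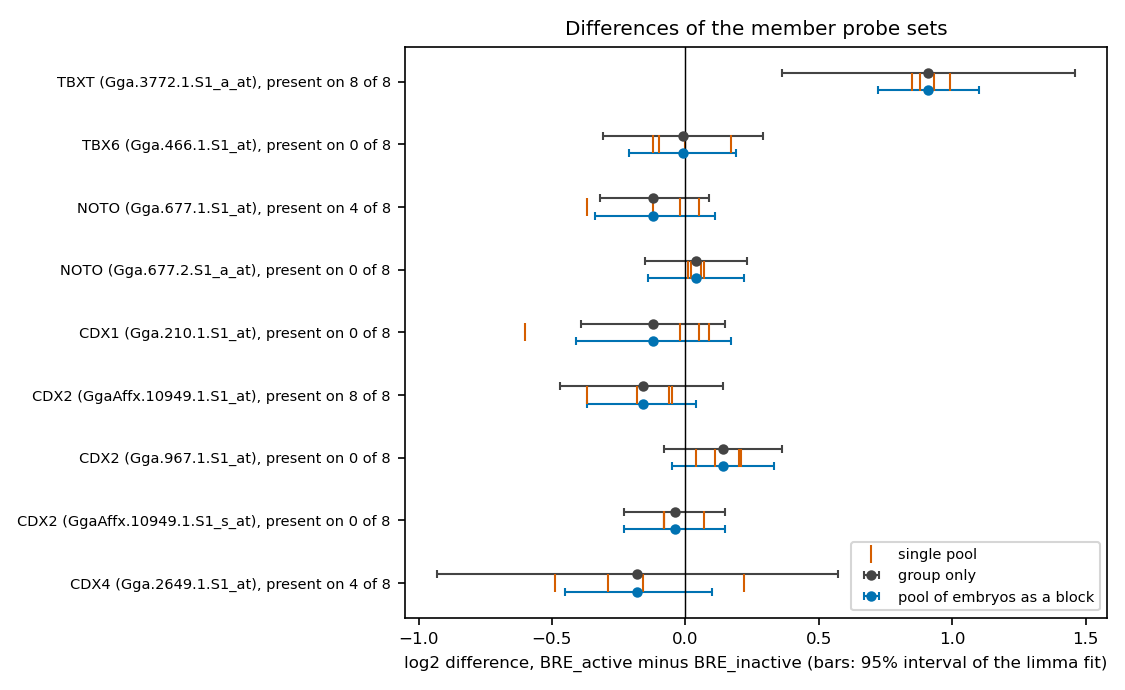
Log2 difference of each probe set, BRE_active minus BRE_inactive (horizontal axis), with the 95% interval of limma on group only and with the pool as a block, and a tick for each pool. Only the intervals of TBXT, 0.36 to 1.46 and 0.72 to 1.10, exclude 0. CDX4 has the widest interval on group only, from -0.93 to 0.57, and probe sets present on 0 of 8 arrays lie below detection.

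The CDX genes showed no difference that passed the test. CDX1, known in chick as CdxA (Entrez gene ID 395397, chromosome 13), was absent on all 8 arrays. Its values were 4.38 to 4.73 in BRE_active and 4.49 to 4.98 in BRE_inactive cells, with the highest value in BRE_inactive cells of pool 1, and the adjusted p was 0.703.

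The deposited table assigns 3 probe sets to CDX2, and they disagreed on detection. Which of them reads CDX2 was not tested, since no probe sequences were used here. The brightest (Entrez gene ID 374205, chromosome 1) was present on all 8 arrays, with 7.57, 7.53, 7.53 and 7.88 in BRE_active cells of pools 1 to 4, against 7.94, 7.59, 7.58 and 8.06 in BRE_inactive cells. Every pool was lower in BRE_active cells, by 0.05 to 0.37, and the groups overlapped. The difference was -0.16 ± 0.14, with a 95% interval from -0.47 to 0.14 and an adjusted p of 0.628, or from -0.37 to 0.04 and 0.369 with the block. A share of 14.5% of all probe sets was lower in all 4 pools.

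The other CDX2 probe sets were absent on all 8 arrays. The first, designed on a RefSeq transcript, read 4.04 to 4.32 in BRE_active and 3.82 to 4.12 in BRE_inactive cells, with an adjusted p of 0.555. The second, which the deposited table assigns to the same Ensembl transcript as the bright one, read 3.90 to 4.17 in BRE_active and 3.98 to 4.10 in BRE_inactive cells, with an adjusted p of 0.860. Whether CDX2 was called detected thus depended on the probe set.

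CDX4, known in chick as CdxB, varied more by pool than by fraction. Its probe set (Entrez gene ID 395320, chromosome 4) read 3.75, 4.22, 5.16 and 4.48 in BRE_active cells of pools 1 to 4, against 4.24, 4.00, 5.32 and 4.78 in BRE_inactive cells. It was called present in both fractions of pool 3, in the BRE_active cells of pool 2 and in the BRE_inactive cells of pool 4, and was marginal in the BRE_active cells of pool 4. Pool accounted for 90.7% of the sum of squares and group for 3.03%, and the pool means were 4.00, 4.11, 5.24 and 4.63. A pool share of this size was also found without detection, at 90.3% for TBX6 and 92.9% for the NOTO probe set present on no array. The CDX1 and CDX2 probe sets present on no array had lower shares, 18.9%, 63.6% and 78.2%. The share alone thus does not set CDX4 apart. Its pool means spanned 1.24, against 0.42 for TBX6 and 0.22 for that NOTO probe set.

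The CDX4 difference of -0.18 ± 0.33 had a 95% interval from -0.93 to 0.57, that is from 0.526-fold to 1.48-fold, and an adjusted p of 0.847. With the block the interval narrowed to 0.730-fold to 1.07-fold and the adjusted p was 0.466. An increase in signal of the size seen for brachyury, 1.88-fold, lay outside both intervals, for a probe set that was present on 4 of 8 arrays. Its mean level was at percentile 54.1 of all probe sets, against 79.6 for that of brachyury. The intervals thus bound the signal of this dim probe set, and the change in CDX4 transcript was not tested apart from it. Pool by pool the difference was -0.49, 0.22, -0.16 and -0.29. Its sign was positive without the BRE_active array of pool 1 (0.04) or the BRE_inactive array of pool 3 (0.06).

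The pattern of CDX4 was close to that of MSGN1, which encodes mesogenin 1, a basic helix-loop-helix factor of the presomitic mesoderm. MSGN1 read 3.51, 3.46, 5.21 and 4.18 in BRE_active cells, against 3.91, 3.48, 4.96 and 3.86 in BRE_inactive cells, and was present on 2 and 3 arrays of these groups. Both genes were highest in pool 3. MSGN1 ranked 3 among 6962 genes in likeness to CDX4, with a Pearson r of 0.896 over the 8 arrays, and 0.915 after the group means were removed. TAMM41 (0.931) and M6PR (0.904) came before it and ST6GALNAC3 (0.842) and DNAI7 (0.841) after it. These arrays share 4 pools, and r is given as a description only.

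Brachyury was also highest in pool 3, but resembled CDX4 less than MSGN1 did. The r of brachyury over the 8 arrays was 0.247 with CDX4, 0.492 with MSGN1, -0.170 with NOTO and -0.735 with the bright CDX2 probe set. After the group means were removed r was 0.616 with CDX4, 0.745 with MSGN1, 0.394 with NOTO and -0.726 with that CDX2 probe set. Among the genes most like brachyury were the GDNF receptor gene GFRA1 (r = 0.971), GDE1 (0.966), GNB5 (0.961) and EDEM1 (0.960). None of these 4 is a caudal or mesodermal marker of the lists used here, and none was called with group only, with adjusted p from 0.188 to 0.306. With the block GFRA1 (adjusted p = 0.00656) and EDEM1 (0.0126) were called, both higher in BRE_active cells.

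Likeness of this size was not rare for the bright probe sets. An r of at least 0.9 was found with 141 of 6962 genes for brachyury and with 295 for the bright CDX2 probe set, against 3 for NOTO and 2 for CDX4. The CDX2 probe set was most like TMEM126A and FKBP1A (r = 0.995 each), SLC25A14 (0.994), TOMM5 and NIP7 (0.990 each). These encode mitochondrial proteins, a prolyl isomerase and a ribosome biogenesis factor. It ran against the 3-prime to 5-prime difference of the control genes, with r = -0.802. NOTO was most like EPM2A (0.920), DPY19L4 and CEP164 (0.914 each).

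**Figure D4:**
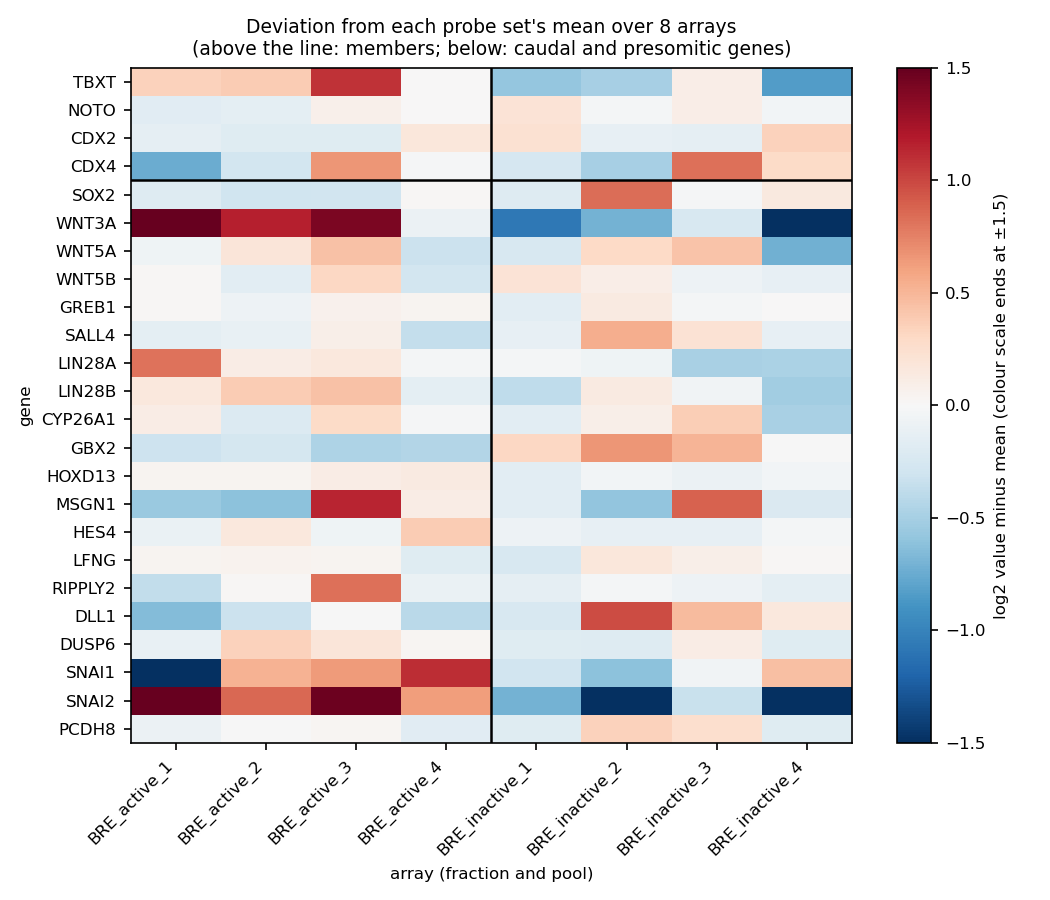
Deviation of each gene's log2 value from its own mean over the 8 arrays (colour, with the scale ending at 1.5 either way), with the 4 members that were present on at least 4 arrays above the line and caudal and presomitic genes below it (CDX2 is its bright probe set). CDX4 and MSGN1 are high in both fractions of pool 3, while TBXT and WNT3A are higher in BRE_active cells of every pool.

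Genes that act around the members in the tail bud were mostly not called. Here each gene is its brightest probe set, and 1.55% of 13249 genes were called higher and 0.657% lower in BRE_active cells. Of 20 measured genes of the caudal neural plate and tail bud, 0 rose and 1 fell, GBX2, a homeobox factor, with a difference of -0.74 ± 0.14 (adjusted p = 0.0329). The median difference of the list was 0.01, against -0.02 over all genes. Of the 20 genes, 8 were present on all arrays and 5 on none. With the block 3 rose and 1 fell, where 4.91% of genes rose and 2.55% fell. Those that rose with it, named after their values were seen, were the Wnt ligand gene WNT3A and the RNA-binding protein genes LIN28A and LIN28B.

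WNT3A sustains axial progenitors in the mouse tail bud and is also made in the roof plate. Its probe set is listed as WNT3 in the deposited table and was renamed through its gene ID. Like brachyury, WNT3A was higher in BRE_active cells of every pool. It read 10.93, 10.43, 10.67 and 9.17 in BRE_active cells, against 8.19, 8.56, 9.02 and 7.14 in BRE_inactive cells, with an r of 0.908 with brachyury over the 8 arrays, or 0.748 after the group means were removed. Its r with the 3-prime excess of the control genes was 0.799. Its difference of 2.07 ± 0.45 had an adjusted p of 0.0612, and 0.000477 with the block. SOX2, which marks bipotent progenitors together with brachyury and the neural tube by itself, differed by -0.38 ± 0.20 (adjusted p = 0.432, and 0.268 with the block). FGF8 and FGF4, ligands of the tail bud, were present on no array.

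Of 13 measured genes of presomitic mesoderm and segmentation, 1 rose and 0 fell, with a median of -0.01, and 3 were present on no array. The gene that rose was SNAI2 (2.23 ± 0.33, adjusted p = 0.013), which is as well known as a neural crest gene. With the block the Notch ligand gene DLL1 also fell (-0.69 ± 0.24, adjusted p = 0.0344 against 0.246 without it). RIPPLY2, a repressor at somite borders, was present on 2 arrays of each group. It read 2.75, 3.13, 3.94 and 3.01 in BRE_active cells of pools 1 to 4, against 2.98, 3.09, 3.04 and 2.97 in BRE_inactive cells. Pool 3 was thus its highest in BRE_active cells only.

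Of 12 measured notochord and floor plate genes, 2 rose and 1 fell, with a median of 0.06, and 1 was present on no array. COL9A1, a cartilage and notochord collagen gene, rose by 1.39 ± 0.11 (adjusted p = 0.00053) and CCN2, a matrix-associated growth factor gene, by 0.86 ± 0.13 (adjusted p = 0.015). FOXA2, a forkhead factor of floor plate and notochord, fell, with a mean of 4.78 ± 0.24 in BRE_active and 5.68 ± 0.32 in BRE_inactive cells (SD, n = 4 each) and present calls on 1 and 3 arrays of these groups (-0.89 ± 0.17, limma adjusted p = 0.0376). SOX9, a cartilage and neural crest factor present on 1 BRE_active and 0 BRE_inactive arrays, passed the test as higher with the block (adjusted p = 0.00101) and not without it (0.0834). NOTO, CHRD and COL2A1 were not called.

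Wnt targets other than the members had the highest median of the 7 lists compared, 0.31. Of the cell type markers given below, neural crest (2.14), endothelium (0.85) and somite and mesenchyme (0.65) had higher medians and the rest lower ones. Of 13 measured Wnt targets, 3 were present on no array. Where 1.55% of all genes were called higher, 3 others of the 13 rose and 0 fell. They were the Wnt inhibitor genes NOTUM (1.70 ± 0.22, adjusted p = 0.00647) and APCDD1 (1.19 ± 0.18, adjusted p = 0.0133) and the receptor gene FZD10 (0.81 ± 0.15, adjusted p = 0.0307). With the block AXIN2 and MYC rose too. AXIN2 had, like brachyury and the 3-prime excess of the control genes, its highest values in pool 3 and its lowest in pool 4 in both fractions. NOTUM, APCDD1, FZD10 and MYC did not have this order in both fractions.

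Of 14 measured trunk and posterior Hox genes, 0 were called and 6 were present on no array, with a median of 0.00. The 3 with the smallest p were HOXD11 (0.32 ± 0.14, present on 4 BRE_active and 0 BRE_inactive arrays), HOXA6 (-0.55 ± 0.20) and HOXC11, which was present on no array, and their adjusted p ran from 0.263 to 0.630. HOXA6 fell with the block (adjusted p = 0.018). Of 12 other T-box genes 0 were called and 8 were present on no array. MGA, which encodes a MAX partner with a T-box, was present on all 8 and differed by 0.69 ± 0.36 (adjusted p = 0.438), and TBX22 had an adjusted p of 0.429, with present calls on 3 arrays of BRE_active and 0 of BRE_inactive cells. TBX19 had the smallest p of the list but was among those present on no array (adjusted p = 0.268). Of 3 other SP genes, SP1, SP2 and SP3, 0 were called.

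**Figure D5:**
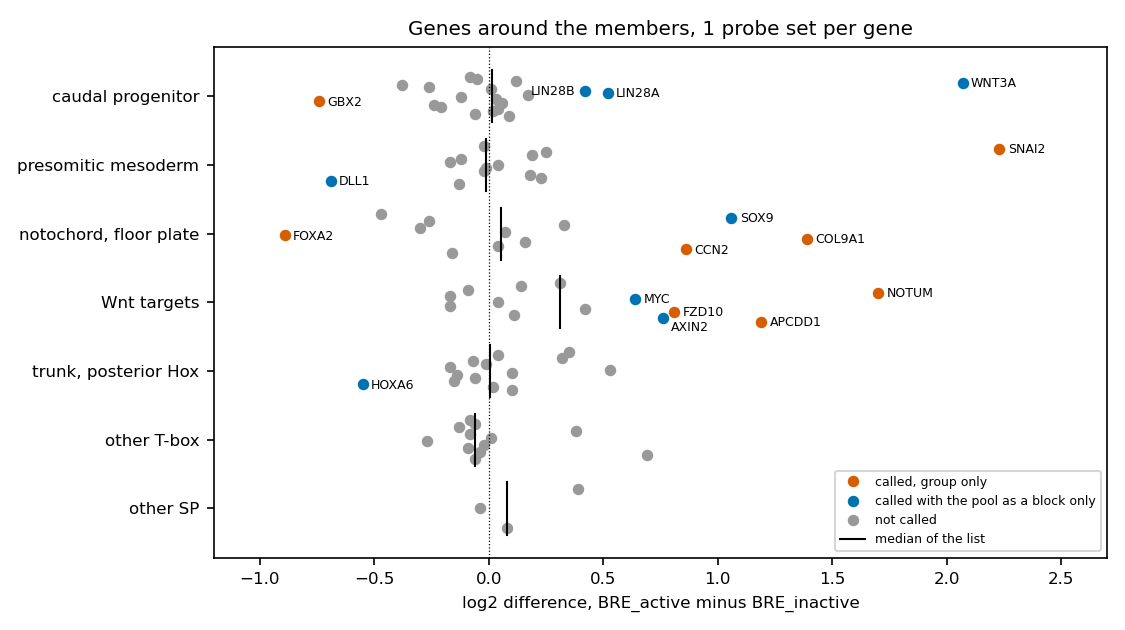
Log2 difference, BRE_active minus BRE_inactive (horizontal axis), of each measured gene of 7 lists (vertical axis), with the median of each list as a black line. Orange genes were called with group only and blue genes only with the pool as a block, and the Wnt targets have the highest median, 0.31.

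Markers of other cell types were set beside these values. The mean over 7 somite and mesenchyme markers was 5.54 to 7.29 in BRE_active and 5.95 to 6.50 in BRE_inactive cells, and 0 of the 7 were called. It was 7.14, 7.29 and 7.15 in BRE_active cells of pools 2 to 4, against 5.97, 6.50 and 6.40 in BRE_inactive cells, and so was higher in BRE_active cells of these 3 pools, as brachyury was. In pool 1 it was lower, at 5.54 in BRE_active and 5.95 in BRE_inactive cells, and the list median difference was 0.65. The mean over 4 neural crest markers was 9.66 to 10.60 in BRE_active and 7.20 to 8.61 in BRE_inactive cells, and 4 of 4 rose. Of 5 neural tube markers 2 fell, SOX3 (-1.09 ± 0.11, adjusted p = 0.0027) and PAX6 (-1.11 ± 0.21, adjusted p = 0.0349), with a list median of -0.84, and 3 fell with the block. Of 5 red blood cell markers 4 fell, and 5 with the block. Limma called 0 of 4 endothelial (1 higher with the block), 0 of 4 surface ectoderm and 0 of 3 gut endoderm genes. The part of these cell types in the brachyury difference was not tested.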

How the data were processed

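RNA of 8 sorted cell samples was hybridised to Affymetrix arrays after biotin labelling, per the labels. The authors deposited log2 expression values for 38535 probe sets, a detection letter per array (present, marginal or absent) and an adjusted p-value. The background correction, normalization, probe summary, detection caller and genome build were not given in the sources used here. The other deposited table held the same log2 values within 1e-08. A limma model on group over all probe sets gave the deposited adjusted p-value again, within 6.41e-13, and for TBXT the authors' deposited table gives 0.143.

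After 96 control probe sets were left out, 38439 remained for limma 3.58.1 under R 4.3.3 (lmFit, eBayes, group only, Benjamini-Hochberg over all of them, threshold 0.05). Differences are BRE_active minus BRE_inactive. Symbols were updated through the gene ID with RefSeq (assembly GRCg7b), which held 22915 of the 26132 probe sets that have an ID. The 13249 genes of the lists are each the probe set with the highest mean. Named were all members, called list genes (or the 3 with the smallest p), and the 5 genes most like each member present on at least 4 arrays, among genes so detected; 1 of these is not reported here. The members and lists were chosen with earlier results of these data known. No sequences or coordinates were used here.

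Replicate numbers stand for embryo pools, and each pool was split into both fractions, which pairs the arrays by design. Deviations from the group means correlated between the fractions of a pool at -0.141 (pool 1), 0.203 (pool 2), 0.498 (pool 3) and 0.584 (pool 4). Pairs of arrays correlated between 0.974 and 0.996, and no 2 were alike (smallest SD of a difference 0.192). The limma step on group only was tested on simulated data without pool effects, and the fits with a pool block were not. Alternatives were a fixed or random pool block, quantile normalization, a filter on present calls, another prior, array weights, the second table, 1 probe set per gene, and leaving out each pool or array.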

Additional observations from a re-analysis of the deposited data

Results flagged for a closer look

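The bright CDX2 probe set had 1 array far from the others of its group: BRE_active cells of pool 4 read 7.88, while those of pools 1 to 3 read 7.57, 7.53 and 7.53. The gap to the nearest array was 0.875 of the group's range, above Dixon's critical value for 4 samples. It was the only such value among 18 groups of 4 arrays looked at, and chance gives about 1 in 20. BRE_inactive cells of pool 4 were also the highest of their group, at 8.06.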

How the results depend on the processing

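TBXT was positive in all 19 alternatives and called in 3: with the replicate block (0.91, adjusted p = 0.000784), with the pool as a random block (0.91, 0.0404) and without the BRE_active array of pool 4 (1.06, 0.0469). The alternatives reuse the same arrays and are no independent support. Leaving out pools or arrays gave 0.70 to 1.10. The number of member probe sets called was accordingly 0 or 1, and 1 in those 3 settings (0 to 1 over the left-out pools and arrays). The other 8 probe sets were called in 0 of 147 combinations. TBX6 changed sign around 0, with 0.01 after quantile normalization and 0.00 with array weights, and ran from -0.08 to 0.08 over left-out pools and arrays. So did CDX4 (-0.43 to 0.06), CDX1 (-0.19 to 0.04) and the dim NOTO probe set (-0.01 to 0.08), of which all but CDX4 are, like TBX6, below detection. The count over all probe sets was 517, but 2156 with the replicate block, 1068 with the random block, 1040 with array weights, and 77 to 1419 over left-out pools and arrays. With the replicate block 4 caudal, 2 presomitic, 5 Wnt target, 1 Hox and 1 endothelial gene were called. So were 4 notochord and floor plate, 3 neural tube, 4 neural crest and 5 red blood cell genes. Of all genes 4.91% were called higher and 2.55% lower in BRE_active cells with this block. Testing only probe sets present on at least 4 arrays called 567 probe sets, against 517 without this filter. Among them were 2 of 11 caudal genes, 4 of 10 Wnt targets and 5 of 5 red blood cell genes. The counts of the other lists did not change with this filter. The block changed no other call of a member. The causes were not tested. Limits are 4 pools, 5 of 9 probe sets below detection, and unstated normalization.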

Other observations

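Some trunk Hox genes, chosen after their values were seen, differed by pool more than by fraction, in another pool order than brachyury and CDX4. HOXC10 read 7.57, 8.02, 8.90 and 9.59 in BRE_active cells of pools 1 to 4, against 7.61, 7.17, 8.01 and 9.14 in BRE_inactive cells, and pool accounted for 83.3% of its sum of squares. HOXD8 read 3.55, 4.45, 4.47 and 5.68 in BRE_active cells, against 3.71, 3.86, 4.40 and 4.75 in BRE_inactive cells, with a pool share of 81.0%. It was present on 3 BRE_active and 2 BRE_inactive arrays. Shares of this size were also found without detection, at 85.1% for HOXA10, 86.4% for HOXA11 and 85.7% for HOXD12. HOXA9, HOXC8 and HOXC11, also present on no array, had lower shares of 56.0%, 44.1% and 58.9%. HOXC10 and HOXD8 were highest in pool 4, where brachyury was lowest, while CDX4 and MSGN1 were highest in pool 3. The bright CDX2 probe set was also highest in pool 4 in both fractions, at 7.88 and 8.06.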
